A study of Mus musculus with 17 samples.

Results

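The constitutive proteasome of CD8+ T cells was followed as 31 genes, chosen as a fixed list of subunits: 14 genes of the 20S core (Psma1 to Psma7 and Psmb1 to Psmb7) and 17 genes of the 19S regulatory particle (Psmc1 to Psmc6, Psmd1, Psmd2, Psmd4 and the lid genes Psmd3, Psmd6, Psmd7, Psmd8, Psmd11, Psmd12, Psmd13 and Psmd14). The immunoproteasome subunits were left out of the list. All 31 were found among the 53679 genes of the count files, and all 31 passed the filter on low counts that left 16246 genes to test. Read counts came from 17 libraries of rRNA-depleted total RNA, each made from purified CD8+ T cells of the C57BL/6 strain. The groups were cells knocked out for CBLB (KO) and wild-type cells (WT), each unstimulated, given anti-CD3, or given anti-CD3 and anti-CD28 (both antibodies), the stimulated ones for 12 h. Each group held 3 libraries, except WT cells given both antibodies, with 2. Cblb encodes a ubiquitin ligase that dampens T cell activation, and anti-CD28 supplies the costimulatory signal next to the receptor signal of anti-CD3. The labels do not name the part of Cblb removed or the cells in which it was removed, and do not say that replicates were separate animals. The p-values therefore describe only how these samples vary, which may be technical.

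The proteasome is the main protease of the cytosol and nucleus. Its barrel-shaped core is built of outer alpha rings, which gate the entrance, and inner beta rings, of which Psmb5, Psmb6 and Psmb7 carry the chymotrypsin-like, caspase-like and trypsin-like activities. The regulatory particle caps the core: its base holds the ring of ATPases encoded by Psmc1 to Psmc6, which unfold substrates and thread them inward, with the scaffold subunits Psmd1 and Psmd2 and the ubiquitin receptor Psmd4, and its lid holds the deubiquitinase Psmd14. In mammals the transcription factor Nrf1 (Nfe2l1) is known to raise proteasome genes together through antioxidant response elements when proteasome activity is short.

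Promoter windows from the RefSeq table of GRCm38.p6, running from 250 bases before to 50 bases after the start, were found for 25 of the 31 members. The letters TGACNNNGC, the core of the antioxidant response element, were searched on both strands and stood in 4 of these 25 (16%), against 14% of the 27025 genes of the table. The other searches, also on both strands, found CCAAT in 10 of 25 members (40%, against 41.1% of all genes), CACGTG in 1 of 25 (4.0% against 8.09%) and GGGCGG in 15 of 25 (60.0% against 38.2%). GGGCGG was held by 5 of 11 core members and 10 of 14 regulatory particle members with a window. The 4 windows with TGACNNNGC are shown because this element is the one known for joint control of proteasome genes. They belong to the catalytic subunits Psmb6 and Psmb5, the ATPase Psmc6 and the lid subunit Psmd12, and capitals mark the match, which in Psmc6 and Psmd12 lies on the opposite strand.
Psmb6 (chr11:70525107-70525406, plus strand): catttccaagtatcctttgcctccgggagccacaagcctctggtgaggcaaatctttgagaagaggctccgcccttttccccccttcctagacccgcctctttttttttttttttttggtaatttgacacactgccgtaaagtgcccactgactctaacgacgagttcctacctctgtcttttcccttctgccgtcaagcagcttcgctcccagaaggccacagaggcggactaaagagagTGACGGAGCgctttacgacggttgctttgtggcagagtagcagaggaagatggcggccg
Psmb5 (chr14:54617946-54618245, minus strand): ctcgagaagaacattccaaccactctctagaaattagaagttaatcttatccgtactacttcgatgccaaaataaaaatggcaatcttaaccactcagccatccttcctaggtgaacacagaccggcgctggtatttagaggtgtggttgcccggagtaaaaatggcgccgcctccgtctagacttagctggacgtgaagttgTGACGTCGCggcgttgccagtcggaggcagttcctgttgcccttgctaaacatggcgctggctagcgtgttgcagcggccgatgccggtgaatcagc
Psmc6 (chr14:45329574-45329873, plus strand): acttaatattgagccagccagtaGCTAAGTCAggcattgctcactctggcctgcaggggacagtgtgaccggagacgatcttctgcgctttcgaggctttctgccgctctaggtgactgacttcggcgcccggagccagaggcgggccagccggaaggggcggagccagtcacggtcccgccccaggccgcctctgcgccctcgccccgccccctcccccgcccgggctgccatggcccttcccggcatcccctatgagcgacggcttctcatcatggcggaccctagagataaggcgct
Psmd12 (chr11:107479278-107479577, plus strand): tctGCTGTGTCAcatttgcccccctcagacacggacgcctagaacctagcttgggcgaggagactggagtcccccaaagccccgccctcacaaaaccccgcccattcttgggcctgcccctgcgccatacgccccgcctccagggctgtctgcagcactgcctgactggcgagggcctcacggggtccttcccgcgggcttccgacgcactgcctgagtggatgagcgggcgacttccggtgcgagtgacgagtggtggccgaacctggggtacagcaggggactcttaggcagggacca
Counted from the start, the first base of the match is at -9 in Psmb6, -47 in Psmb5, -227 in Psmc6 and -247 in Psmd12. A match describes these letters and is not evidence of binding.

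Total counts were 16635826 to 38269033 per library, and 160059285 in KO unstimulated replicate 2. Cblb itself was at 63.9 to 95.9 CPM (counts scaled to library size) in KO libraries and 140 to 190 CPM in WT libraries. The 6 CD8 T cell markers summed to 2010 to 3660 CPM, while B cell markers summed to 5.16 to 27.2 CPM, myeloid and dendritic cell markers to 11.1 to 28.4 CPM, CD4 and regulatory T cell markers to 2.05 to 4.06 CPM, NK cell markers to 0.853 to 5.09 CPM and erythroid and platelet markers to 0.24 to 3.47 CPM. The highest value of Cd4 was 0.292 CPM and that of the NK cell gene Ncr1 0.194 CPM, and Pf4 of platelets was at 0 throughout. Other genes of the same lists were higher: Foxp3 reached 2.16 CPM, Klrb1c 4.02 CPM and Hbb-bs 2.72 CPM. Each library also had a tilt with GC content, taken as how far its GC-rich genes (56% or more) stood above its GC-poor genes (40% or less) in median log2 deviation. This tilt was -1.1 in KO both-antibody replicate 3, 1.11 in KO unstimulated replicate 2 and -0.72 to 0.55 in the other libraries. Because the members span 37.0% GC (Psmc6) to 57.4% GC (Psma7), each count of changed members is given from the counts as deposited and again with a per-library GC correction.

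Per length of merged exons, the core members were the more abundant transcripts, with a median over members of 37.2 CPM per kb against 25.6 CPM per kb for the regulatory particle. The core ran from 22.3 CPM per kb for Psmb7 to 78.2 CPM per kb for Psma6, an alpha ring subunit. The regulatory particle ran from 8.2 CPM per kb for Psmd11 to 42.5 CPM per kb for the ATPase Psmc1. With the longest transcript as the length, the medians were 63.0 CPM per kb for the core and 38.2 CPM per kb for the regulatory particle. The extremes then were Psmb7 at 26.7 and Psma4 at 104 CPM per kb in the core, and Psmd3 at 16 and Psmd14 at 57.5 CPM per kb in the regulatory particle.

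Core and regulatory particle moved together over the 6 groups, and KO cells given anti-CD3 held the most of both. The mean core level, as log2(CPM per kb + 1), was 5.09 ± 0.052 in unstimulated, 5.65 ± 0.15 in anti-CD3 and 5.55 ± 0.17 in both-antibody KO cells (SD, n = 3 each). In WT cells it was 4.98 ± 0.064, 5.26 ± 0.042 and 5.11 ± 0.0014 (SD, n = 3, 3 and 2). The order ran from KO anti-CD3 through KO both antibodies, WT anti-CD3, WT both antibodies and KO unstimulated to WT unstimulated cells. The KO anti-CD3 and KO both-antibody libraries overlapped (5.55 to 5.82 and 5.35 to 5.67), as did the last 3 groups in part, whereas all other neighbours were separate.

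The regulatory particle kept the same order. Its mean level on the same scale was 4.33 ± 0.018, 4.92 ± 0.14 and 4.77 ± 0.14 in unstimulated, anti-CD3 and both-antibody KO cells, and 4.23 ± 0.061, 4.52 ± 0.038 and 4.44 ± 0.0078 in the same states of WT cells. Only the libraries of KO anti-CD3 and KO both-antibody cells overlapped. The difference of core minus regulatory particle within a library averaged 0.76 ± 0.068, 0.72 ± 0.013 and 0.78 ± 0.041 in KO cells and 0.75 ± 0.018, 0.74 ± 0.046 and 0.67 ± 0.0092 in WT cells. In bulk RNA, fewer cells expressing these genes and less RNA per cell cannot be told apart.

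**Figure D1:**
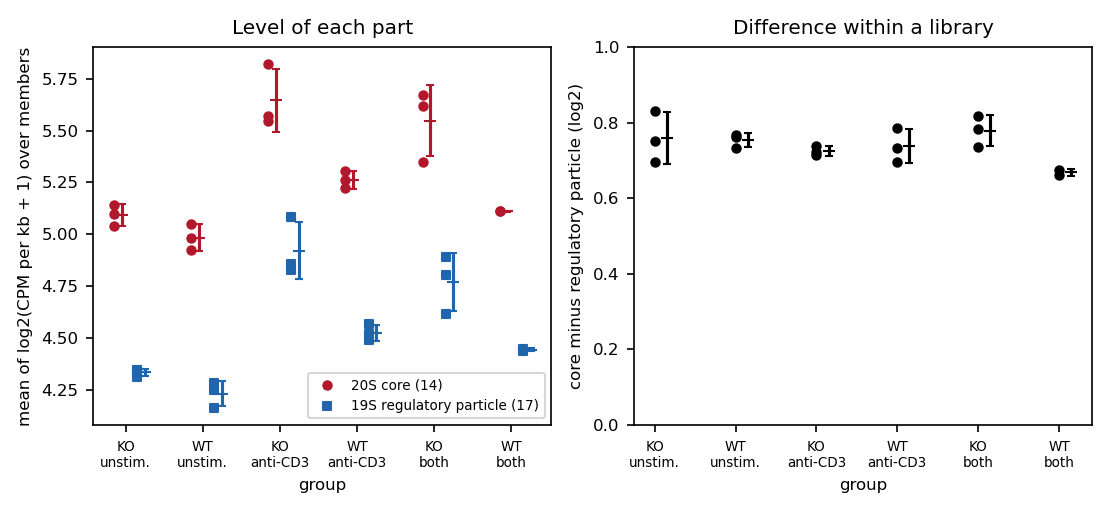
Left, mean of log2(CPM per kb + 1) over the 14 core members (circles) and the 17 regulatory particle members (squares) in each of the 17 libraries; right, their difference within each library. Bars are the group mean ± SD. Both levels are highest in KO cells given anti-CD3, and the difference lies between 0.66 and 0.83 in every library.

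The alpha and beta rings of the core did not keep such an even ratio. Alpha minus beta was 0.11 ± 0.205 in KO unstimulated cells, 0.40 ± 0.0085 in KO anti-CD3 cells and 0.62 ± 0.30 in KO both-antibody cells, against 0.52 ± 0.092, 0.60 ± 0.088 and 0.25 ± 0.0028 in the same states of WT cells. It was lowest (-0.092) in KO unstimulated replicate 2 and highest (0.951) in KO both-antibody replicate 3, the libraries of highest and lowest GC tilt. The median GC content was 45% in the alpha ring and 51.0% in the beta ring. What the tilt contributes to this ratio was not tested.

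**Figure D2:**
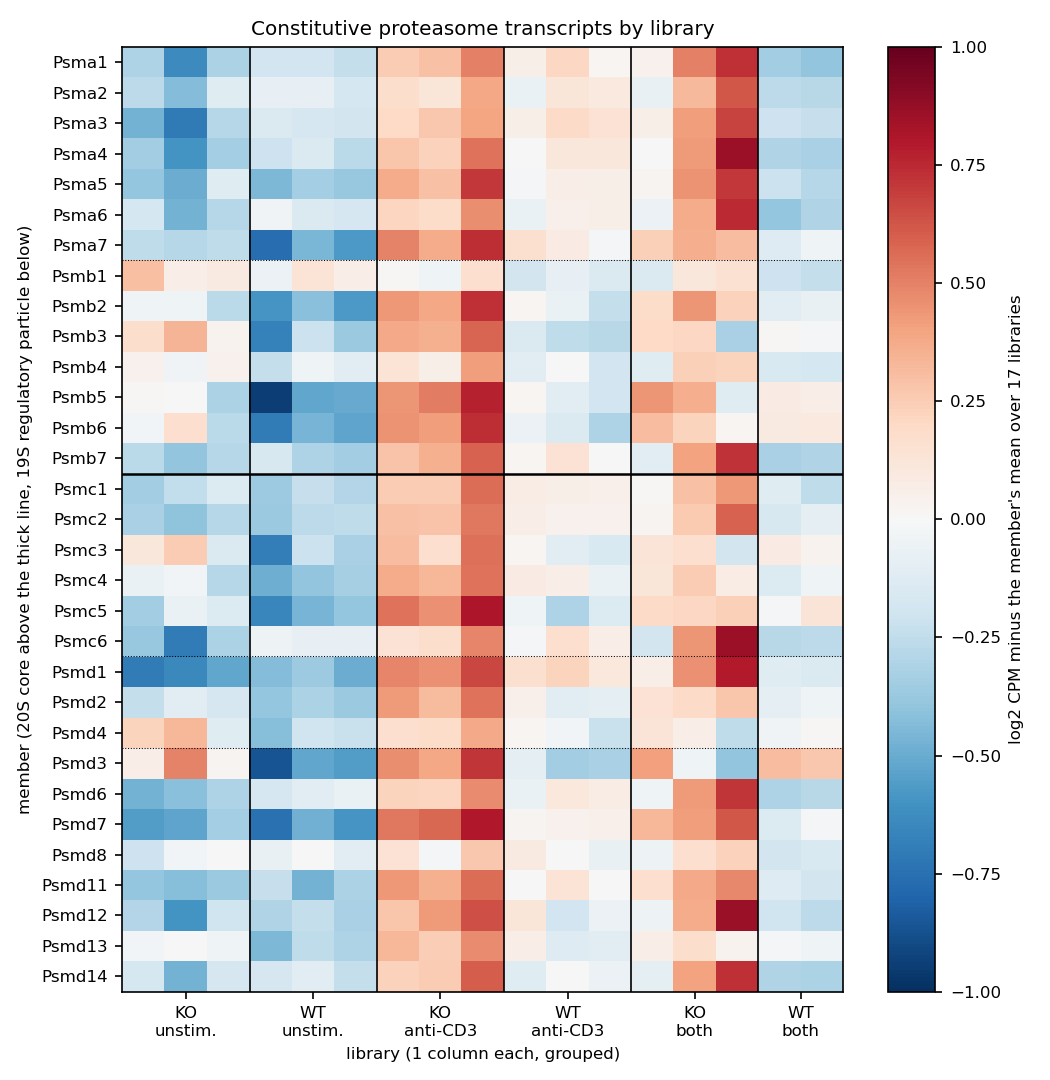
Log2 CPM of each of the 31 members (rows, by role) minus that member's mean over 17 libraries (1 column each); red is above and blue below the mean. Most rows are red in KO cells given anti-CD3, and within KO cells given both antibodies the alpha ring genes other than Psma7 are highest in replicate 3, where Psmd3 and Psmb3 are below their means.

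The first comparison was anti-CD3 against unstimulated cells within KO. Of the 31 members, 24 rose and 0 fell (edgeR's quasi-likelihood test with Benjamini-Hochberg adjustment over all genes), where 19.6% of all tested genes rose and 17.3% fell. The median log2 fold change was 0.64 over the members and 0.02 over all genes. With GC correction 27 rose and 0 fell, against 20.2% and 23.6% of all genes, and the same 24 were among them. In 26 members every anti-CD3 library lay above every unstimulated library, which held for 26.2% of all genes. The 24 were called in all 27 alternative fits. Unstimulated libraries of either genotype also held more B cell marker RNA (17.1 to 27.2 CPM, against 5.16 to 9.93 CPM in stimulated libraries) and more myeloid and dendritic cell marker RNA (19.7 to 28.4 CPM, against 11.1 to 19.5 CPM); their part in these differences was not tested.

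By role, the KO response covered 7 of 7 alpha ring genes, 4 of 7 beta ring genes, 5 of 6 ATPases, 2 of 3 scaffold and receptor genes and 6 of 8 lid genes. Psmd1, the large scaffold of the base, was at 139, 136 and 158 CPM in KO anti-CD3 libraries, against 61.0, 63.6 and 69.2 CPM in KO unstimulated libraries. No library overlapped, and the log2 fold change of Psmd1 was 1.16 ± 0.13 (adjusted p = 2.65e-06), the largest of the members. Psmd7, a lid subunit that pairs with the deubiquitinase Psmd14, was at 58.2, 59.9 and 70.3 CPM in KO anti-CD3 libraries, against 27.3, 27.9 and 31.8 CPM in KO unstimulated libraries (1.12 ± 0.10, adjusted p = 3.72e-07). Psmd11, another lid subunit, was at 68.9, 65.3 and 75.0 CPM with anti-CD3 and 39.0, 38.0 and 39.3 CPM without it in KO cells (0.85 ± 0.094, adjusted p = 2.3e-06). These lid and base genes were separate between the states in every library.

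In the core, the alpha ring genes Psma7, Psma5 and Psma4 had the largest KO responses, at 0.81 ± 0.098, 0.80 ± 0.14 and 0.78 ± 0.15 on the log2 scale. Psma7, the member richest in GC, was at 148, 136 and 175 CPM in KO anti-CD3 libraries, against 88.2, 86.2 and 88.0 CPM in KO unstimulated libraries. Psma5 was at 95.7, 90.8 and 121 CPM with anti-CD3, against 56.7, 52.6 and 68.2 CPM without it, and Psma4 at 142, 138 and 171 CPM, against 92.1, 77.6 and 92.6 CPM. No library of these 3 genes overlapped between the states.

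The catalytic subunits rose as well. Psmb5 was at 45.7, 47.8 and 57.2 CPM in KO anti-CD3 libraries, against 33.9, 33.4 and 27.0 CPM in KO unstimulated libraries (0.67 ± 0.15, adjusted p = 0.00169). Psmb6 was at 79.5, 77.7 and 96.7 CPM with anti-CD3, against 56.9, 65.3 and 48.3 CPM without it (0.57 ± 0.12, adjusted p = 0.00115). Psmb7 was at 90.3, 94.4 and 111 CPM, against 61.2, 56.3 and 60.7 CPM (0.73 ± 0.14, adjusted p = 0.000746). None of the 3 overlapped between the states. Psmb7 overlaps Nek6 on the opposite strand (16.4 CPM on average), and no source used here says whether counting used strand.

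Of the ubiquitin-handling subunits, Psmd14 passed the test and Psmd4 did not; the difference between these genes was not tested. The deubiquitinase Psmd14 was at 101, 103 and 131 CPM in KO anti-CD3 libraries, against 76.5, 62.3 and 76.7 CPM in KO unstimulated libraries (0.64 ± 0.15, adjusted p = 0.00321). The receptor Psmd4 was at 89.9, 90.7 and 104 CPM, against 93.3, 101 and 73.4 CPM, with groups that overlapped (0.09 ± 0.12, adjusted p = 0.618). Psmb1, a beta subunit without catalytic activity, had the smallest value of the members: 126, 121 and 140 CPM with anti-CD3, against 154, 131 and 133 CPM without it (-0.11 ± 0.095, adjusted p = 0.37). Psmb3, Psmb4, Psmc3, Psmd3 and Psmd8 also did not pass the test in KO cells, at 0.20 to 0.31; with GC correction Psmc3, Psmd3 and Psmd8 passed it. Psmd13, which rose, shares its strand with the pseudogene Gm15542 (25.4 CPM on average, against 55.5 CPM for Psmd13), and reads of the pair could be split between them.

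In WT cells anti-CD3 raised 14 of 31 members and lowered 0, where 11.3% of all genes rose and 13.1% fell, and the median was 0.31 over the members and -0.00 over all genes. With GC correction 20 rose and 0 fell, against 15.9% and 18.1% of all genes, and all 14 were among the 20. Every anti-CD3 library lay above every unstimulated one for 24 members and below for 1, which held for 22.3% and 23.1% of all genes. Leaving out replicate 1 of WT anti-CD3 cells gave 7, as did leaving out replicate 1 of WT unstimulated cells, and 6 members (Psma7, Psmb2, Psmc4, Psmd1, Psmd7 and Psmd11) were called in all 27 alternative fits. The 14 were 5 core and 9 regulatory particle genes.

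The largest WT responses were those of Psma7, Psmd7 and Psmd1. Psma7 was at 117, 111 and 104 CPM in WT anti-CD3 libraries, against 62.0, 76.5 and 70.3 CPM in WT unstimulated libraries (0.67 ± 0.098, adjusted p = 7.24e-05). Psmd7 was at 41.0, 41.4 and 41.8 CPM, against 24.0, 28.9 and 26.7 CPM (0.64 ± 0.10, adjusted p = 0.000209), and Psmd1 at 111, 116 and 107 CPM, against 73.5, 77.3 and 70.2 CPM (0.60 ± 0.13, adjusted p = 0.00245). All 3 were separate between the states in every WT library.

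Among the catalytic subunits of WT cells, Psmb5 was at 34.0, 31.2 and 29.4 CPM with anti-CD3, against 17.5, 23.4 and 23.7 CPM without it (0.55 ± 0.15, adjusted p = 0.0117), and Psmb6 at 55.8, 52.6 and 46.9 CPM, against 35.8, 42.0 and 40.3 CPM (0.39 ± 0.12, adjusted p = 0.0234). Both passed the test, with no overlap. Psma5 was at 73.4, 77.7 and 77.3 CPM, against 54.3, 58.6 and 57.1 CPM (0.43 ± 0.14, adjusted p = 0.0362), and Psmc4, an ATPase, at 77.7, 77.1 and 70.3 CPM, against 52.5, 56 and 58.4 CPM (0.43 ± 0.091, adjusted p = 0.00204). Psmb2, a beta subunit without catalytic activity, rose by 0.43 ± 0.11 on the log2 scale (adjusted p = 0.00785). These genes were separate between the states. Psmb7 was at 75.1, 81.7 and 73.6 CPM, against 66.2, 59.6 and 58.0 CPM (0.33 ± 0.14, adjusted p = 0.115) and did not pass the test. Psmd14 was at 79.1, 85.8 and 82.7 CPM, against 76.7, 80.0 and 73.1 CPM (0.11 ± 0.15, adjusted p = 0.663) and Psmd4 at 81.2, 78.4 and 68.6 CPM, against 59.5, 69.8 and 68.7 CPM (0.20 ± 0.12, adjusted p = 0.251). The states overlapped for both of these ubiquitin-handling genes. Psmb1 was again the lowest, at 110, 118 and 113 CPM, against 120, 137 and 131 CPM (-0.19 ± 0.095, adjusted p = 0.174), with every anti-CD3 library below every unstimulated one.

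**Figure D3:**
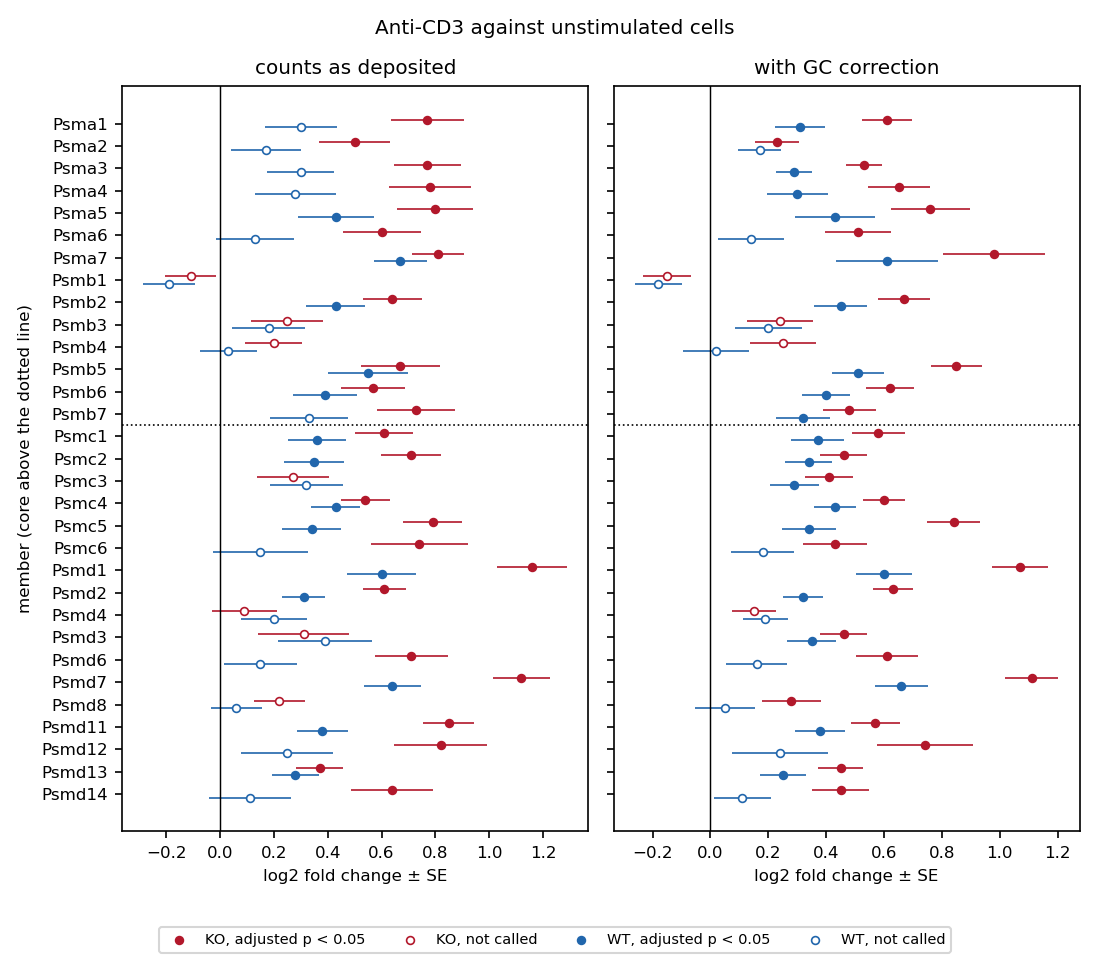
Log2 fold change ± SE of anti-CD3 against unstimulated cells for each member in KO (red) and WT (blue), from the counts as deposited (left) and with GC correction (right); filled points have an adjusted p under 0.05. In both genotypes all members but Psmb1 lie above 0, and the KO value is the larger for 28 of the 31 members in the left panel.

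Whether the anti-CD3 response differed between genotypes was tested as an interaction, KO response minus WT response. Its value was positive for 28 of 31 members with a median of 0.33, against 0.02 over all genes, but edgeR called 0 members (0.0554% of all genes either way). At an unadjusted p under 0.05 edgeR counted 14 members, and 14.8% of all genes. DESeq2 called 0 (1.78% of all genes), limma voom with quality weights 7, all positive (5.65% of all genes), and the GC-corrected fit 1, also positive (2.23% of all genes), which was the ATPase Psmc5 at 0.50 (adjusted p = 0.0488, and between 0.0164 and 0.482 in the alternative fits). The largest interaction values were those of Psmc6 at 0.58 ± 0.25, Psmd1 at 0.57 ± 0.18 and Psmd12 at 0.57 ± 0.24 (adjusted p = 0.299, 0.202 and 0.293), and the lowest was that of Psmd4 at -0.12 ± 0.17 (adjusted p = 0.764).

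KO and WT cells given anti-CD3 were then compared directly. Of the 31 members, 14 were higher in KO cells and 0 lower (edgeR), where 10.5% of all genes were higher and 4.8% lower. The median was 0.39 over the members, 0.34 for the core and 0.41 for the regulatory particle, against 0.04 over all genes. In 29 members every KO library lay above every WT library, which held for 27.4% of all genes. With GC correction 18 were higher and 0 lower, against 10.6% and 11.5% of all genes, with 10 called in both fits. The count was 9 without KO anti-CD3 replicate 3 and 22 without KO both-antibody replicate 1 or 3. The latter belong to neither group compared and enter only the shared steps: the filter on low counts, the scaling and the estimate of the spread.

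The members of largest difference with anti-CD3 were the ATPase Psmc5, the lid subunit Psmd3 and the beta subunits Psmb6, Psmb5 and Psmb3. Psmc5 was at 65.8, 62.0 and 78.7 CPM in KO libraries, against 43.7, 36.3 and 40.9 CPM in WT libraries (0.78 ± 0.11, adjusted p = 0.000254). Psmd3 was at 61.1, 58.0 and 72.5 CPM in KO, against 41.6, 34.7 and 35.4 CPM in WT (0.78 ± 0.17, adjusted p = 0.00561). For both genes the lowest KO library stood well above the highest WT library.

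Among the catalytic subunits given anti-CD3, Psmb6 was at 79.5, 77.7 and 96.7 CPM in KO, against 55.8, 52.6 and 46.9 CPM in WT (0.71 ± 0.12, adjusted p = 0.000909). Psmb5 was at 45.7, 47.8 and 57.2 CPM in KO, against 34.0, 31.2 and 29.4 CPM in WT (0.68 ± 0.15, adjusted p = 0.00553). Psmb7 was at 90.3, 94.4 and 111 CPM in KO, against 75.1, 81.7 and 73.6 CPM in WT, separate in every library but not past the test (0.36 ± 0.14, adjusted p = 0.103). With GC correction the 3 differences were 0.58, 0.35 and 0.45, and all 3 passed the test.

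Psmd7 was at 58.2, 59.9 and 70.3 CPM in KO anti-CD3 libraries, against 41.0, 41.4 and 41.8 CPM in WT anti-CD3 libraries (0.60 ± 0.10, adjusted p = 0.00108). Psmb3 was at 82.4, 81.3 and 94.8 CPM in KO, against 57.2, 53.2 and 52.2 CPM in WT (0.67 ± 0.14, adjusted p = 0.00317). The 7 members called in all 27 alternative fits were Psmb2, Psmb3, Psmb6, Psmc5, Psmd2, Psmd3 and Psmd7, which come from the beta ring, the ATPase ring, the scaffold and the lid. At the low end, the lid subunit Psmd8 was at 86.1, 77.4 and 93.9 CPM in KO, against 82.7, 77.5 and 74.0 CPM in WT (0.14 ± 0.094, adjusted p = 0.35), with overlap. Psmd14 had a difference of 0.44 ± 0.15 (adjusted p = 0.0613, or 0.0015 with GC correction) and Psmd4 of 0.32 ± 0.12 (adjusted p = 0.0858, or 0.2 with GC correction).

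In cells given both antibodies 19 of 31 members were higher in KO and 0 lower, where 9.84% of all genes were higher and 6.3% lower, with a median of 0.44 over the members and 0.00 over all genes. With GC correction 21 were higher and 0 lower, against 10.1% and 7.52% of all genes, with 15 called in both fits. Every KO library lay above both WT libraries for 25 members, which held for 24.6% of all genes. The call rests on 2 WT libraries: the count was 0 without WT replicate 2, 0 without WT replicate 3 and 0 when only these 5 libraries were fitted. It was 9 without KO both-antibody replicate 3 and 12 without KO both-antibody replicate 2.

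All 7 alpha ring genes were higher in KO cells given both antibodies, with and without GC correction. Psma1 was at 97.2, 134 and 157 CPM in KO, against 74.2 and 72.0 CPM in WT (0.82 ± 0.16, adjusted p = 0.00451). Psma4 was at 117, 158 and 212 CPM in KO, against 95.5 and 93.9 CPM in WT (0.77 ± 0.17, adjusted p = 0.00985), and Psma6 at 90.6, 122 and 158 CPM, against 71.9 and 76.3 CPM (0.74 ± 0.17, adjusted p = 0.0101). In each of these genes the KO libraries spread widely, lowest in replicate 1 and highest in replicate 3, and stood apart from the WT libraries.

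In the regulatory particle, the deubiquitinase Psmd14 was at 81.2, 114 and 143 CPM in KO cells given both antibodies, against 70.0 and 69.3 CPM in WT (0.70 ± 0.17, adjusted p = 0.0165). The ATPase Psmc6 was at 95.0, 146 and 195 CPM in KO, against 88.9 and 89.9 CPM in WT (0.70 ± 0.20, adjusted p = 0.0305), and the lid subunit Psmd6 at 66.2, 91.8 and 112 CPM, against 55.2 and 56.2 CPM (0.69 ± 0.16, adjusted p = 0.00976). With GC correction Psmd14 and Psmd6 passed the test and Psmc6, the member poorest in GC, had a difference of 0.32 (adjusted p = 0.0817).

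The order of members differed from that with anti-CD3 alone. Psmd3 was at 58.9, 43.0 and 33.6 CPM in KO cells given both antibodies, against 54.8 and 53.5 CPM in WT (-0.26 ± 0.19, adjusted p = 0.355), the lowest of the members. Psmb5 was at 45.5, 43.2 and 30.8 CPM, against 35.6 and 35.2 CPM (0.17 ± 0.17, adjusted p = 0.512), and Psmb6 at 72.1, 67.8 and 58.8 CPM, against 61.7 and 62.2 CPM (0.10 ± 0.13, adjusted p = 0.657). In all 3 the KO libraries fell on both sides of the WT libraries, replicate 3 being the lowest. Psmb7 was at 68.6, 97.6 and 122 CPM in KO, against 59.0 and 60.0 CPM in WT (0.69 ± 0.16, adjusted p = 0.0135), and Psmd4 at 87.4, 83.8 and 67.3 CPM, against 78.1 and 80.7 CPM (0.00 ± 0.14, adjusted p = 0.996). With GC correction Psmb5 was 0.58 higher in KO (adjusted p = 0.000919), while Psmb6 had 0.17, Psmd3 0.04 and Psmd4 0.15, none past the test.

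**Figure D4:**
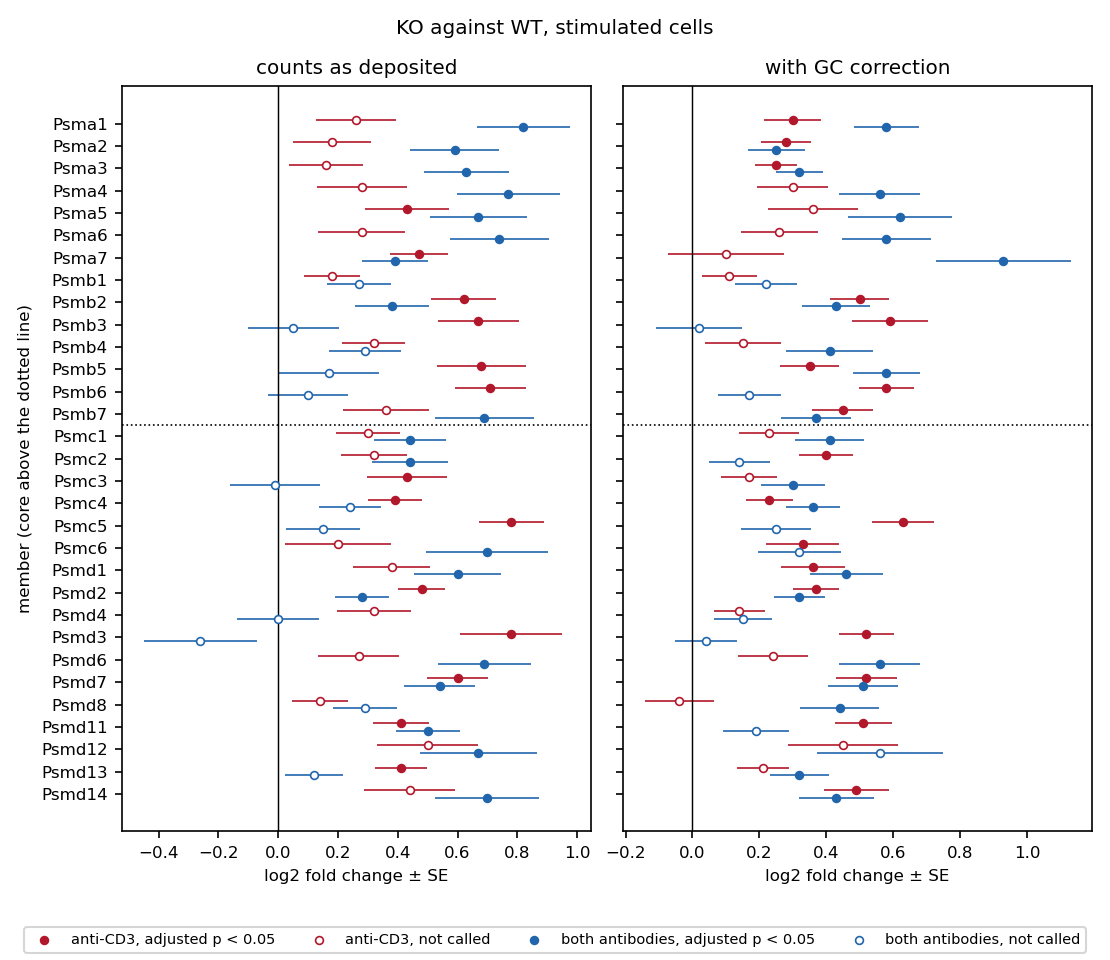
Log2 fold change ± SE of KO against WT for each member, in cells given anti-CD3 (red) and both antibodies (blue), from the counts as deposited (left) and with GC correction (right); filled points have an adjusted p under 0.05. With anti-CD3 all 31 values in the left panel are above 0, and with both antibodies Psmd3 (-0.26) and Psmc3 (-0.01) lie below 0 and Psmd4 is at 0.00.

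In unstimulated cells 11 of 31 members were higher in KO and 0 lower, where 15.3% of all genes were higher and 10.1% lower. The median was 0.06 over the members and -0.01 over all genes, with values on both sides of 0 for 17 and 14 members. All KO libraries lay above all WT libraries for 13 members and below for 7, which held for 21.9% and 19.5% of all genes. The count was 0 without KO unstimulated replicate 2 and 1 without WT unstimulated replicate 1. With GC correction 5 were higher and 0 lower, against 3.38% and 3.02% of all genes, and 3 of them (Psmb3, Psmb6 and Psmd3) were called in both fits.

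Psmd3 was at 46.4, 62.3 and 45.2 CPM in KO unstimulated libraries, against 24.3, 30.9 and 30.0 CPM in WT unstimulated libraries (0.86 ± 0.17, adjusted p = 0.00696). Psmb3 was at 71.5, 80.1 and 65.1 CPM in KO, against 39.6, 54.6 and 49.0 CPM in WT (0.60 ± 0.14, adjusted p = 0.00922). Psmb6 was at 56.9, 65.3 and 48.3 CPM in KO, against 35.8, 42.0 and 40.3 CPM in WT (0.54 ± 0.12, adjusted p = 0.00917). These genes were separate between genotypes, and in all 3 the KO library highest in GC tilt was the highest.

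Psmb5 was at 33.9, 33.4 and 27.0 CPM in KO unstimulated libraries, against 17.5, 23.4 and 23.7 CPM in WT (0.56 ± 0.15, adjusted p = 0.0164), but its difference was 0.01 with GC correction (adjusted p = 0.981). Psmc3, an ATPase, was at 90.1, 99.3 and 75.4 CPM, against 51.5, 71.7 and 66.7 CPM (0.48 ± 0.14, adjusted p = 0.0182), and the receptor Psmd4, at 93.3, 101 and 73.4 CPM in KO against 59.5, 69.8 and 68.7 CPM in WT, was 0.44 ± 0.12 higher (adjusted p = 0.0185). Neither passed the test with GC correction, at 0.06 and 0.18. Psmc6 was at the other end, at 82.8, 66.4 and 86.6 CPM in KO, against 104, 102 and 102 CPM in WT (-0.39 ± 0.18, adjusted p = 0.117), followed by Psma3 at -0.32 ± 0.12 (adjusted p = 0.0701). Psmb7 and Psmd14 had differences of -0.05 ± 0.14 and -0.10 ± 0.15 that did not pass the test (adjusted p = 0.84 and 0.671).

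Both antibodies against unstimulated cells gave 21 members higher and 0 lower in KO cells, where 23% of all genes rose and 22.5% fell. The median was 0.57 over the members and 0.01 over all genes. With GC correction 26 rose and 0 fell, against 21.3% and 22.7% of all genes, and 20 were called in both fits. Every both-antibody library lay above every unstimulated library for 22 members, which held for 22.6% of all genes. The 16 members called in all 27 alternative fits included 6 of the 7 alpha ring genes, the trypsin-like subunit Psmb7 and the regulatory particle genes Psmc1, Psmc2, Psmc6, Psmd1, Psmd2, Psmd6, Psmd7, Psmd11 and Psmd12.

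The largest KO responses to both antibodies were those of Psmd1, Psmd7, Psma3, Psma4, Psmc6 and Psma1. Psmd1 was at 104, 136 and 172 CPM with both antibodies, against 61.0, 63.6 and 69.2 CPM without (1.09 ± 0.13, adjusted p = 5.38e-06), and Psmd7 at 50.8, 53.9 and 61.9 CPM, against 27.3, 27.9 and 31.8 CPM (0.94 ± 0.10, adjusted p = 2.72e-06). Psma3 was at 136, 174 and 208 CPM, against 94.1, 80.0 and 107 CPM (0.89 ± 0.13, adjusted p = 3.12e-05); it overlaps 3110056K07Rik on the opposite strand (17.8 CPM on average). Psmd3, at -0.19 ± 0.17 (adjusted p = 0.379), was the lowest, with 58.9, 43.0 and 33.6 CPM against 46.4, 62.3 and 45.2 CPM. The states overlapped for Psmd3 and were separate for Psmd1, Psmd7 and Psma3. Psma4 was at 117, 158 and 212 CPM, against 92.1, 77.6 and 92.6 CPM (0.89 ± 0.15, adjusted p = 0.000187), Psma1 at 97.2, 134 and 157 CPM, against 76.3, 60.9 and 76.0 CPM (0.87 ± 0.14, adjusted p = 8.06e-05) and Psmc6 at 95.0, 146 and 195 CPM, against 82.8, 66.4 and 86.6 CPM (0.89 ± 0.18, adjusted p = 0.000844).

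Of the catalytic subunits in KO cells given both antibodies, only Psmb7 passed the test, at 68.6, 97.6 and 122 CPM, against 61.2, 56.3 and 60.7 CPM (0.70 ± 0.14, adjusted p = 0.000979). Psmb5 was at 45.5, 43.2 and 30.8 CPM, against 33.9, 33.4 and 27.0 CPM (0.34 ± 0.15, adjusted p = 0.0737) and Psmb6 at 72.1, 67.8 and 58.8 CPM, against 56.9, 65.3 and 48.3 CPM (0.22 ± 0.12, adjusted p = 0.151), and both passed it with GC correction. Psmb5 and Psmb6 overlapped between the states, replicate 3 being their lowest stimulated library. The deubiquitinase Psmd14 was at 81.2, 114 and 143 CPM, against 76.5, 62.3 and 76.7 CPM (0.66 ± 0.15, adjusted p = 0.00236) and the receptor Psmd4 at 87.4, 83.8 and 67.3 CPM, against 93.3, 101 and 73.4 CPM (-0.17 ± 0.12, adjusted p = 0.269).

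In WT cells both antibodies raised 12 members and lowered 0, where 17.8% of all genes rose and 16.3% fell, and the median was 0.17 over the members and -0.01 over all genes. With GC correction 10 rose and 1 (Psmb1) fell, against 15% and 17.6% of all genes, with 7 called in both fits. Both WT both-antibody libraries lay above every unstimulated one for 17 members and below for 10, which held for 33.2% and 32.3% of all genes. The count was 6 without WT both-antibody replicate 2 and 6 without replicate 3. Psmb6, Psmc5, Psmd3 and Psmd7 were called in all 27 alternative fits.

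Psmd3 was at 54.8 and 53.5 CPM in WT cells given both antibodies, against 24.3, 30.9 and 30.0 CPM in WT unstimulated cells (0.93 ± 0.19, adjusted p = 0.00148). Psmb5 was at 35.6 and 35.2 CPM, against 17.5, 23.4 and 23.7 CPM (0.72 ± 0.17, adjusted p = 0.00342; 0.23 with GC correction, adjusted p = 0.0817), and Psmb6 at 61.7 and 62.2 CPM, against 35.8, 42.0 and 40.3 CPM (0.65 ± 0.13, adjusted p = 0.00144). Psmb1, at 108 and 106 CPM against 120, 137 and 131 CPM, was the lowest (-0.27 ± 0.11, adjusted p = 0.0587, or 0.0433 with GC correction). Psma7 was at 95.8 and 102 CPM, against 62.0, 76.5 and 70.3 CPM (0.51 ± 0.11, adjusted p = 0.00208), but had -0.07 with GC correction. Psmc5 was at 44.4 and 49.3 CPM, against 28.7, 32.6 and 34.4 CPM (0.56 ± 0.12, adjusted p = 0.00248) and Psmd7 at 36.7 and 39.9 CPM, against 24.0, 28.9 and 26.7 CPM (0.53 ± 0.12, adjusted p = 0.00243). Psmb7, Psmd14 and Psmd4 did not pass the test, at -0.04 ± 0.16, adjusted p = 0.865 for Psmb7, -0.14 ± 0.17, adjusted p = 0.562 for Psmd14 and 0.27 ± 0.14, adjusted p = 0.14 for Psmd4.

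From the counts as deposited, the core had a median of -0.04 and the regulatory particle one of 0.27 in this comparison, a gap of -0.31. With GC correction the medians were 0.13 and 0.12 and the gap 0.00, so the gap was seen only without GC correction. The uncorrected difference of mean levels within a library was also lower, at 0.662 to 0.675 in WT both-antibody and 0.733 to 0.767 in WT unstimulated libraries. In the other 8 comparisons between 2 groups the gap in medians lay between -0.07 and 0.08.

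For anti-CD28 added to anti-CD3, the calls among the members depended on the tool. In KO cells edgeR called 0 of 31 (0% of all genes, and 0% with GC correction), with 11 at an unadjusted p under 0.05 (8.99% of all genes), and a median of -0.09 against -0.01 over all genes. DESeq2 called 0 as well (0% of all genes), whereas limma voom with quality weights called 5 higher and 8 lower (34.2% of all genes either way). In WT cells edgeR called 0 of 31 (0% of all genes, and 0.0246% with GC correction), with 8 at an unadjusted p under 0.05 (21.6% of all genes), and a median of -0.17. DESeq2 called 0 (3.64% of all genes) and limma voom 4 higher and 14 lower (37.3% of all genes). With only these 5 WT libraries in the fit, edgeR called 3 higher and 12 lower (31.1% of all genes). Psmd3 lay at opposite ends in the genotypes, at -0.50 ± 0.17 in KO and 0.54 ± 0.19 in WT cells (adjusted p = 0.547 and 0.161). These values are without GC correction, and Psmd3 has 55.4% GC. From anti-CD3 to both antibodies the mean tilt went from 0.18 to -0.36 in KO and from -0.30 to 0.53 in WT cells. The part of the tilt was not tested.

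The both-antibody response was compared between genotypes as an interaction. It was larger in KO cells for 15 members and smaller for 2, where 18.3% of all genes were called larger and 19.2% smaller, and the median was 0.39 over the members and 0.045 over all genes. With GC correction it was larger for 10 and smaller for 2, against 8.61% and 7% of all genes, and 9 members were called by both fits. The count was 10 (9 larger, 1 smaller) without WT both-antibody replicate 2 and the same without replicate 3. The 6 called in all 27 alternative fits were Psma1, Psma3, Psma4 and Psma6 of the alpha ring, the scaffold Psmd1 and the lid subunit Psmd6. Those of largest value were Psmc6 at 1.09 ± 0.27, Psma1 at 1.04 ± 0.205 and Psma4 at 0.99 ± 0.23 (adjusted p = 0.00668, 0.00372 and 0.0049), and the lowest was Psmd3 at -1.12 ± 0.26 (adjusted p = 0.00471). With GC correction Psmc6 had 0.24 and did not pass the test (adjusted p = 0.377). Psma1 had 0.59, Psma4 0.61 and Psmd3 -0.37 with it (adjusted p = 0.0068, 0.0161 and 0.0456).

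GC content ran alongside these values. Across the 31 genes, which are not independent replicates and share the libraries, Pearson's r of GC content with the KO against WT difference (log2) was 0.78 in unstimulated, 0.52 in anti-CD3 and -0.72 in both-antibody cells. With GC correction it was -0.19, -0.20 and 0.14. Of the 9 members under 45% GC, 5 of them core, 0 were higher in unstimulated KO cells, 1 was higher with anti-CD3 and 9 were higher with both antibodies, where 0.541%, 2.87% and 16.1% of all tested genes under 45% GC were. With GC correction these counts were 2, 8 and 6 members, against 2.25%, 10.2% and 9.05% of such genes. Of the 9 members of 52% GC or more, 3 of them core, 7, 6 and 1 were higher in KO cells in the same states, where 39.8%, 17.6% and 2.57% of all tested genes of that GC content were. With GC correction they were 1, 3 and 7 members, against 4.42%, 10.9% and 10.7%. The mean tilt was 0.58 in KO and -0.45 in WT unstimulated cells, 0.18 in KO and -0.30 in WT anti-CD3 cells, and -0.36 in KO and 0.53 in WT both-antibody cells.

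**Figure D5:**
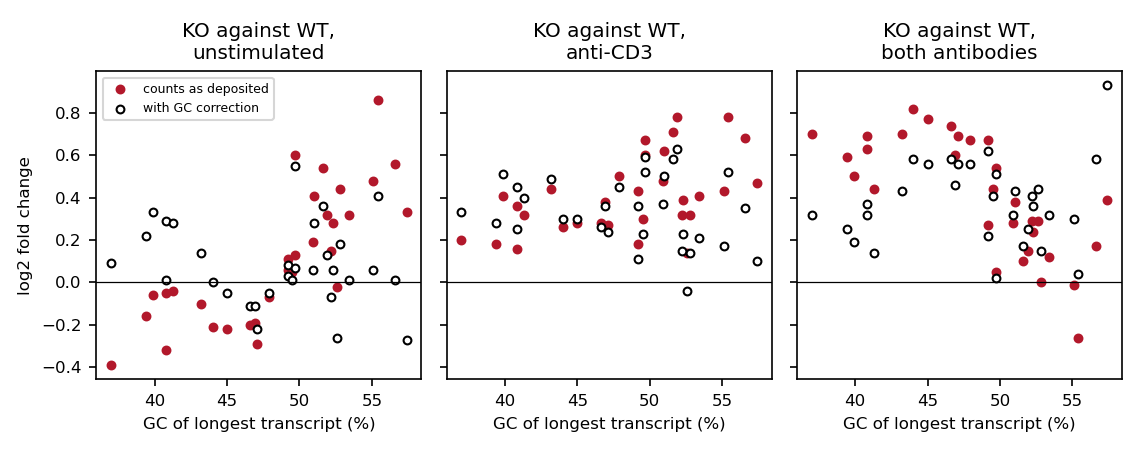
Log2 fold change of KO against WT for each of the 31 members against the GC content of its longest transcript, in unstimulated cells (left), with anti-CD3 (centre) and with both antibodies (right); red points are from the counts as deposited, open points after GC correction. The red points climb with GC content on the left and fall on the right, and the open points show r between -0.20 and 0.14.

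Genes that serve the proteasome were read from lists beside the members. Of 8 assembly chaperones tested, 5 rose and 0 fell with anti-CD3 in KO cells (19.6% and 17.3% of all genes) and 3 rose and 0 fell in WT cells (11.3% and 13.1%). With GC correction 5 rose in KO and 2 in WT cells, against 20.2% and 15.9% of all genes, and 0 fell. Pomp, which matures the core, was at 71.1, 69.6 and 88.3 CPM in KO anti-CD3 libraries, against 52.3, 50.8 and 51.1 CPM in KO unstimulated libraries (0.57 ± 0.11, adjusted p = 0.0006), and rose by 0.31 ± 0.11 in WT cells (adjusted p = 0.048). In KO against WT cells 5 of the 8 were higher with anti-CD3 (10.5% of all genes) and 6 with both antibodies (9.84%), and 0 were lower. With GC correction 3 and 5 were higher, against 10.6% and 10.1% of all genes, and 0 lower. In unstimulated cells edgeR called 0 of them, and the GC-corrected fit 0. Psmg2, a chaperone of alpha ring assembly, was 0.74 ± 0.15 higher in KO cells given anti-CD3 (adjusted p = 0.00333) and 0.73 ± 0.18 higher in those given both (adjusted p = 0.0141). Pomp had 0.31 ± 0.11 (adjusted p = 0.0686) with anti-CD3 and was 0.45 ± 0.12 higher with both (adjusted p = 0.0245).

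The immunoproteasome and PA28 list (Psmb8, Psmb9, Psmb10, Psme1 and Psme2) had its calls for KO against WT in unstimulated cells, from the counts as deposited. All 5 were higher in KO unstimulated cells, where 15.3% of all genes were (3.38% with GC correction). In the same cells 6 myeloid and dendritic cell markers summed to 26.3 to 28.4 CPM in KO, against 19.7 to 23.3 CPM in WT. Most of that sum was Cst3 (16.2 ± 1.5 CPM in KO, 13.2 ± 1.64 CPM in WT) and Itgax (8.68 ± 1.21 CPM in KO, 5.75 ± 0.958 CPM in WT; SD, n = 3 each). Itgam had 1.46 ± 0.251 CPM in KO and 1.73 ± 0.295 CPM in WT, and Lyz2, Csf1r and Adgre1 were under 1 CPM in every library; the part of those cells was not tested. Of the 5, 0 passed the test in either direction with anti-CD3 (15.3% of all genes) and 0 with both antibodies (16.1%), and with GC correction the counts were 3 higher, 0, and 1 higher with 1 lower. Psmb10, which replaces Psmb7 in the immunoproteasome, was at 88.9, 103 and 66.2 CPM in KO, against 26.7, 40.3 and 37.0 CPM in WT unstimulated libraries (1.32 ± 0.28, adjusted p = 0.00906). Psmb8 and Psmb9, which replace Psmb5 and Psmb6, were 0.65 ± 0.13 and 0.78 ± 0.13 higher in the same cells (adjusted p = 0.00686 and 0.00466). The response to both antibodies was smaller in KO cells for 4 of the 5, against 19.2% of all genes, and for 3 with GC correction, against 7%. From the counts as deposited the values were -0.87 ± 0.19 for Psmb8, -1.19 ± 0.20 for Psmb9 and -2.23 ± 0.41 for Psmb10, all past the test. Psmb9 rose by 0.84 ± 0.13 with anti-CD3 in WT cells (adjusted p = 0.000154) and had 0.10 ± 0.13 in KO cells (adjusted p = 0.57).

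The list for the Nrf1 pathway held Nfe2l1, Ddi2, Ngly1, Vcp, Syvn1, Mafg, Maff and Mafk, and also Nfe2l2 and Keap1, which are not particular to Nrf1. Of these 10 genes, 4 rose and 1 fell with anti-CD3 in KO cells and 2 rose and 1 fell in WT cells. The shares of all genes were 19.6% and 17.3% in KO and 11.3% and 13.1% in WT cells, and the WT counts are near them. With GC correction 4 rose and 2 fell in KO cells, against 20.2% and 23.6% of all genes. In WT cells 3 rose and 3 fell with it, against 15.9% and 18.1%. Nfe2l1 itself rose by 0.30 ± 0.11 in KO cells (adjusted p = 0.0382) and had 0.28 ± 0.11 in WT cells (adjusted p = 0.0785). Vcp, the ATPase that extracts Nrf1 from the membrane, rose by 0.78 ± 0.093 in KO and 0.43 ± 0.093 in WT cells, and Mafg, a partner of Nrf1 on DNA, by 1.31 ± 0.14 and 1.25 ± 0.14. Ngly1, the glycanase that processes Nrf1, fell by 0.37 in KO and by 0.56 in WT cells. In KO against WT cells with anti-CD3, Nfe2l1 was 0.42 ± 0.11 higher (adjusted p = 0.0152). Of the 10, 4 were higher and 0 lower, against 10.5% and 4.8% of all genes. With GC correction 3 were higher and 1 lower, against 10.6% and 11.5%.

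Other bound factors and ubiquitin genes were mixed. Psme3, an activator of the nuclear proteasome, rose by 1.03 ± 0.11 with anti-CD3 in KO and by 0.66 ± 0.11 in WT cells. The rest of its list moved less. Psme4 averaged 123 CPM in unstimulated and 147 CPM in anti-CD3 KO cells, and 161 and 160 CPM in WT cells. Psmf1 averaged 34.9 and 38.6 CPM in KO and 30.0 and 32.8 CPM in WT cells. Of 5 further regulatory particle factors, 3 rose in KO and 0 in WT cells, where 19.6% and 11.3% of all genes rose. The WT count is near that share. The rises in KO cells were led by the deubiquitinases Uchl5 (1.07 ± 0.19) and Usp14 (0.73 ± 0.17). With GC correction 4 rose in KO and 2 in WT cells, against 20.2% and 15.9% of all genes. Of 10 ubiquitin, E1 and shuttle genes, 4 rose and 2 fell with anti-CD3 in KO cells and 2 rose and 1 fell in WT cells. Of all genes 19.6% rose and 17.3% fell in KO and 11.3% and 13.1% in WT cells. The falls in KO and both WT counts are near those shares. With GC correction 5 rose and 3 fell in KO cells, against 20.2% and 23.6% of all genes. In WT cells 2 rose and 2 fell with it, against 15.9% and 18.1%. The E1 gene Uba6 rose by 1.07 ± 0.16 in KO and 0.49 ± 0.16 in WT cells, while Ubb, a polyubiquitin gene, fell by 0.51 in KO cells and had -0.31 ± 0.13 in WT cells (adjusted p = 0.11).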

How the data were processed

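RNA of 17 libraries was sequenced as stranded, rRNA-depleted, paired-end libraries, per the labels' protocols. RSEM 1.3.0, STAR 2.5.2 and build GRCm38/mm10 are listed in the submitters' processing notes; the authors deposited whole-number counts per gene, and how estimated counts became whole numbers is not given in the sources used here. A joined table of the same libraries was not used, and replicate 1 of WT cells given both antibodies was not analysed here. Of 53679 genes, 24955 had no count in any library and 16246 passed edgeR's filter on low counts. Identifiers were named from GENCODE vM21 (53565 matched), and 102 of 104 listed genes were found. Counts were fitted with edgeR 4.0.16 (robust quasi-likelihood test, TMM scaling, R 4.3.3), all 17 libraries together with 1 coefficient per group, and 11 contrasts were adjusted over all tested genes by Benjamini-Hochberg at 0.05. Alternatives were DESeq2 1.42.0, limma 3.58.1 voom with quality weights, relative log expression scaling, other filters on low counts, only the groups compared, a replicate block, a loess correction for GC content (span 0.3), leaving out the 2 libraries whose GC tilt was most extreme, and leaving out each library. On simulated data for KO against WT cells given anti-CD3, the fit recovered 89.5% of 200 genes changed 2-fold among 15653 genes. Every simulated gene had the same dispersion, and no change under 2-fold was simulated. The members' differences in that comparison were all under 2-fold, so the share recovered does not apply to them. With a simulated GC trend over 15675 genes, 1140 unchanged genes were called without GC correction and 9 with it. That trend was the same in every KO anti-CD3 library, whereas the tilt of the data differed between replicates. Correction of such uneven tilts was not tested by simulation.

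No replicate pair agreed within sampling noise (chi-square per gene 3.79 to 576). The total count per library, which sets the counting precision, is given with the groups. The members and lists were chosen with earlier results of these data known. All 31 members could be named, with values per library for Psmb5, Psmb6, Psmb7, Psmd14, Psmd4 and, per comparison, the 3 core and 3 regulatory particle members of largest and the 1 of smallest fold change. From other lists at most 4 called genes each were named by adjusted p, with Pomp, Nfe2l1, Psmb8, Psmb9 and Psmb10 always open to naming. Levels per length used log2(CPM per kb + 1).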

Additional observations from a re-analysis of the deposited data

Results flagged for a closer look

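The response to both antibodies differed between KO and WT cells for 17 members, by edgeR's interaction test with Benjamini-Hochberg adjustment (15 larger and 2 smaller in KO, where 18.3% and 19.2% of all genes were). Values are KO response minus WT response on the log2 scale, followed by the value with GC correction. In the alpha ring they were 1.04 and 0.59 for Psma1, 0.74 and 0.03 for Psma2, 0.94 and 0.31 for Psma3, 0.99 and 0.61 for Psma4, 0.61 and 0.58 for Psma5, and 0.94 and 0.69 for Psma6. In the beta ring they were 0.74 and 0.08 for Psmb7 and -0.56 and -0.53 for Psmb3. Among the ATPases they were 1.09 and 0.24 for Psmc6 and 0.48 and -0.14 for Psmc2, and for the scaffold Psmd1 0.79 and 0.57. In the lid they were 0.98 and 0.77 for Psmd6, 0.41 and 0.45 for Psmd7, 0.56 and -0.13 for Psmd11, 0.75 and 0.61 for Psmd12, 0.79 and 0.29 for Psmd14, and -1.12 and -0.37 for Psmd3. The adjusted p ranged from 0.00372 for Psma1 to 0.0499 for Psmd7. With GC correction 9 of these 17 passed the test: Psma1, Psma3, Psma4, Psma6, Psmb3, Psmd1, Psmd3, Psmd6 and Psmd7, where 8.61% of all genes were larger and 7% smaller. WT cells given both antibodies were 2 libraries.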

How the results depend on the processing

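GC correction changed the sign of 9 values that passed the test either as deposited or as corrected. They are given here as corrected, then corrected with the replicate block, against the value as deposited. In KO against WT unstimulated cells they were Psmd11 (0.33 and 0.32, against -0.06), Psma7 (-0.27 and -0.28, against 0.33) and Psmc2 (0.28 and 0.28, against -0.04). In cells given both antibodies, Psmc3 reversed in KO against WT (0.30 and 0.32, against -0.01) and in KO against unstimulated (0.35 and 0.34, against -0.04), and Psma7 in WT against unstimulated (-0.07 and -0.12, against 0.51). In the interaction for both antibodies Psmd11 (-0.13 and -0.14, against 0.56), Psmb5 (0.58 and 0.60, against -0.39) and Psmc2 (-0.14 and -0.12, against 0.48) reversed. By the same rule no other alternative run reversed a member. Values that passed the test in neither fit also changed sign and are not counted here. Psma2 in KO against WT unstimulated cells, for example, had -0.16 as deposited and 0.22 with GC correction.

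Counts of members called moved by over 1.5 times as follows, each with the share of all genes called by the same fit. KO against WT unstimulated gave 5 with GC correction (6.4%) and 5 with the block added (6.23%), against 11 (25.4%). KO against WT with anti-CD3 gave 26 with voom (35.3%), 26 with only the groups compared (34.7%), 22 with GC correction and block (22.5%) and 22 without the 2 libraries of extreme tilt (26.2%), against 14 (15.3%). With both antibodies it gave 0 with only the groups compared (0%), against 19 (16.1%). Both antibodies against anti-CD3 gave 13 in KO with voom (34.2%), and in WT 18 with voom (37.3%), 15 with only the groups compared (31.1%) and 9 without the 2 libraries (18.1%), against 0 (0%). The anti-CD3 interaction gave 7 with voom (5.65%), 2 with only the groups compared (2.97%), 1 with GC correction (2.23%) and 4 with the block added (3.71%), against 0 (0.0554%). The interaction for both antibodies gave 10 without the 2 libraries (23.4%), against 17 (37.5%). The cause was not tested.

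The gap of core minus regulatory particle medians moved in KO against WT unstimulated cells (0.03) to 0.10 with voom, -0.04 with GC correction, -0.05 with the block added and 0.09 without the 2 libraries. With both antibodies (0.05) it was 0.16 with voom, 0.10 with GC correction and 0.13 without the 2 libraries. With voom it was -0.05 for anti-CD3 in KO (0.02), -0.00 for both antibodies against unstimulated in KO (0.08) and 0.12 against anti-CD3 in KO (0.07). For both antibodies in WT (-0.31) it was 0.00 with GC correction and -0.01 with the block added.

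Leaving out 1 library, counts ran from 0 to 14, 9 to 22 and 0 to 23 in KO against WT cells (unstimulated, anti-CD3, both antibodies), 24 to 25 and 7 to 18 for anti-CD3 in KO and WT, 20 to 23 and 6 to 14 for both antibodies in KO and WT, 0 to 1 and 0 to 3 for both antibodies against anti-CD3, and 0 to 3 and 10 to 22 for the interactions (anti-CD3, both antibodies). The gaps, in the same order of the first 9 comparisons, ran from -0.04 to 0.09, -0.09 to -0.03, 0.04 to 0.13, -0.09 to 0.04, -0.07 to 0.06, 0.04 to 0.13, -0.34 to -0.26, 0.06 to 0.13 and -0.10 to -0.06. Whether replicate numbers pair samples could not be decided, because each group held few libraries and these differed in GC tilt. Correlations between libraries of the same number ran from -0.494 to 0.632, with 11 of 40 over 0.1. Those between libraries of other numbers ran from -0.683 to 0.621, with 18 of 80 over 0.1. The replicate block alone gave 12, 17, 18, 24, 14, 21, 12, 0, 0, 0 and 18 members over the 11 comparisons in that order.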
